A study of Mus musculus with 12 samples.

Results

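Trimethylation of lysine 4 on histone H3 (H3K4me3) was profiled by chromatin immunoprecipitation and sequencing in 4 libraries of cKit+ bone marrow cells, the progenitor fraction of mouse marrow that carries the stem cell factor receptor. These were chosen from the 12 libraries of the series by the mark named in their labels, and the other 8 libraries hold H3K27ac and H3K4me1. The labels compared, with 2 libraries each, were Tg, Phf6R274X transgenic mice, and WT, wild-type mice, both on the C57BL/6 strain. Cells were sorted by flow cytometry, the antibody was Diagenode C15410003, and each library was deposited as a list of peaks. The 4 lists held 144523 autosomal peaks of the 750343 peaks in all 12 lists, and they merged into 43826 regions. The design text counts 2 mice per genotype; age, sex and the promoter that drives the transgene were not given in the sources used here. Because each label rests on 2 libraries, a p-value here measures the spread between these libraries only.

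The label and the peak names inside the H3K4me3 lists disagree. In all 4 H3K4me3 lists the name written on each peak carries the opposite genotype to the label, whereas label and peak name match in the other 8 lists. Every direction below is therefore given by label as libraries labelled Tg against libraries labelled WT, and by peak name each such direction turns round.

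H3K4me3 is laid down by the SET1 and MLL methyltransferase complexes, removed by KDM5 demethylases, and read by PHD-finger proteins such as TAF3 and the ING family. It marks the starts of active genes and of CpG-rich genes held poised for later use. In marrow progenitors it is found at stem cell, myeloid and housekeeping genes. Phf6 encodes a nuclear PHD-finger protein, on the X chromosome, that is mutated in human T-cell and myeloid leukaemias.

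The promoters that carried a peak under 1 label only differed in the density of CpG, the dinucleotide that is concentrated in CpG-island promoters, so 3 of each kind are shown with CpG in capitals. They were picked, after their values were seen, for genes of known lineage or developmental roles. The sequences are from RefSeq (GRCm38.p6, the assembly called mm10), 250 bases before to 50 bases after the gene start, 5′ to 3′ on the strand of the gene. Pax5 (B-cell identity factor, chr4:44710645-44710944, minus strand), Rag2 (antigen receptor recombinase subunit that binds H3K4me3, chr2:101624462-101624761, plus strand) and Hbb-bs (adult beta-globin, chr7:103827879-103828178, minus strand) overlapped a peak in both libraries labelled Tg and in neither labelled WT.
Pax5: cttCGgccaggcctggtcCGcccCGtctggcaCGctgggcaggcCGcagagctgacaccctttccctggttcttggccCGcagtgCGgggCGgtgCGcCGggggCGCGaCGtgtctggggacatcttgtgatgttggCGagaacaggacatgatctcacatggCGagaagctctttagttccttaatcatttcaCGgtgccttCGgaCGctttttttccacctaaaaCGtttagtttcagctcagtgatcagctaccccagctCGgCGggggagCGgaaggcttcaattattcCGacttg
Rag2: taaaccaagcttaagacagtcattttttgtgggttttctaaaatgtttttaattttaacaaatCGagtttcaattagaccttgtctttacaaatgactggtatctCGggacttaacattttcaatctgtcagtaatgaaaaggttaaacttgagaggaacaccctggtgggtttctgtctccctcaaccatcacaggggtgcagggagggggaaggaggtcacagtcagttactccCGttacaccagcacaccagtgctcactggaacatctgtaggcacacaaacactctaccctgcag
Hbb-bs: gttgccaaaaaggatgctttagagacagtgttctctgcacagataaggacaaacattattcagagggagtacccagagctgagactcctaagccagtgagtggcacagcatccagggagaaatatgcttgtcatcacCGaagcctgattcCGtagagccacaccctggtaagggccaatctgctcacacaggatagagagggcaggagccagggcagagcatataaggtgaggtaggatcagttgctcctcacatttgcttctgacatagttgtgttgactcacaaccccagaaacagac
Rprml (Reprimo-like gene, chr11:103649259-103649558, plus strand), Sox2 (pluripotency and neural transcription factor, chr3:34649745-34650044, plus strand) and Tlx3 (homeobox factor of neurons and of some T-cell leukaemias, chr11:33203539-33203838, minus strand) overlapped a peak in both libraries labelled WT and in neither labelled Tg.
Rprml: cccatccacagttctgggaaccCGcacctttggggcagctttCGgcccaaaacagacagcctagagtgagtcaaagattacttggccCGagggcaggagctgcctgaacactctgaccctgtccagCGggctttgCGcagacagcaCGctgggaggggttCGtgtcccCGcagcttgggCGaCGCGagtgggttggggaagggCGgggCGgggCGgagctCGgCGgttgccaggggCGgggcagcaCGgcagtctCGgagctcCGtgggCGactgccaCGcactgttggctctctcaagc
Sox2: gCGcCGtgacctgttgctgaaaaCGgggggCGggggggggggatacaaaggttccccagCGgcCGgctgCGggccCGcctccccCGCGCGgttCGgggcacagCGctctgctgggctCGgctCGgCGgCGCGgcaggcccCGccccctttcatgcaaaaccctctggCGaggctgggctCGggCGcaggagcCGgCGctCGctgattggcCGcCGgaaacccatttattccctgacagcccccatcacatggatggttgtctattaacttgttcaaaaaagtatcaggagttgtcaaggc
Tlx3: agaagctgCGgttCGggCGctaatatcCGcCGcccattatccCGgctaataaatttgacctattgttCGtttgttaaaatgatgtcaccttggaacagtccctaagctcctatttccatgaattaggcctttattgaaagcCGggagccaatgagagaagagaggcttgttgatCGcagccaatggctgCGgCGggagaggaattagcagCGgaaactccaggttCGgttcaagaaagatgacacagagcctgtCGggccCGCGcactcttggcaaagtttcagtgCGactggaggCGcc

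The CpG-rich Pax5 promoter holds 23 CpG in its 300 bases, and a peak covered 300 and 199 of those bases in the libraries labelled Tg. The Rag2 promoter holds 3 CpG and was covered over 140 and 38 bases in the libraries labelled Tg, and a peak of 259 bp in WT replicate 2 lay downstream of it. At Hbb-bs, with 2 CpG, the peaks of the libraries labelled Tg reached 85 and 106 bases into the promoter, while all 4 libraries had a peak inside the gene itself. The Rprml promoter holds 22 CpG, and peaks covered 266 and 134 of its bases in the libraries labelled WT. Sox2 holds 27 CpG, with 39 and 90 bases covered in the libraries labelled WT. Tlx3 holds 18 CpG, with 300 and 213 bases covered. At their summits the peaks over these promoters held 17 and 12 reads at Pax5, 21 and 13 at Rag2 and 42 and 37 at Hbb-bs. They held 19 and 18 reads at Rprml, 9 and 14 at Sox2 and 12 and 14 at Tlx3, with replicate 1 first. The median summit of a whole library was 24 to 26 reads, so all but those at Hbb-bs were weak. Of all 20085 autosomal promoters of this length, 30.2% held at least as many CpG as Pax5 and 89.0% at least as many as Hbb-bs.

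The targeted gene was looked at first, since it bears on the labels. At the Phf6 start (the gene spans chrX:52912214-52956961) every library had 1 peak, of 2406 and 2493 bp in the libraries labelled Tg and of 2531 and 2522 bp in those labelled WT. Beyond the start, no peak lay in the gene body in either library labelled Tg, against 6 and 4 in those labelled WT. The local background of those 6 and 4 peaks, in reads, was 16.8 to 25.2 in WT replicate 1 and 20.3 to 28.5 in WT replicate 2. Median local backgrounds over whole libraries were only 2.25 and 2.72 reads under Tg and 2.28 and 2.52 reads under WT. The start peak thus differed little between labels, and the body peaks with a high background were found under the WT label alone, which is the mutant by peak name. For H3K4me1 the Phf6 body held 1 and 6 peaks under Tg, with backgrounds of 27.3 reads and of 14.5 to 36.7 reads, against 0 and 1 under WT, where the peak of WT replicate 2 had a background of 3.98 reads. H3K27ac had 0 peaks in the Phf6 body in all 4 of its libraries.

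Vav1, a guanine nucleotide exchange factor made throughout the blood system whose promoter is widely used to drive transgenes in blood cells, showed the same split (chr17:57279100-57329236). The median local background of the H3K4me3 peaks at Vav1 was 2.25 and 2.72 reads in the libraries labelled Tg, against 28.4 and 33.8 reads in those labelled WT. For H3K27ac the median was 42.6 and 48.2 reads in the libraries labelled Tg and 3.67 and 4.33 reads in those labelled WT. For H3K4me1 the medians overlapped, at 14.0 and 6.11 reads under Tg and 8.20 and 5.86 reads under WT, while the highest background was 145 and 92.7 reads under Tg and 11.7 and 11.3 reads under WT. The higher median thus lay with Tg, by label and peak name alike, for H3K27ac, and for H3K4me3 it lay with WT by label and with Tg by peak name. Over the 23935 H3K4me3 regions present in all 4 libraries, the background was at least 4 times higher in both libraries labelled WT at 3 regions, all at Vav1, and at 0 regions in the opposite direction.

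**Figure D1:**
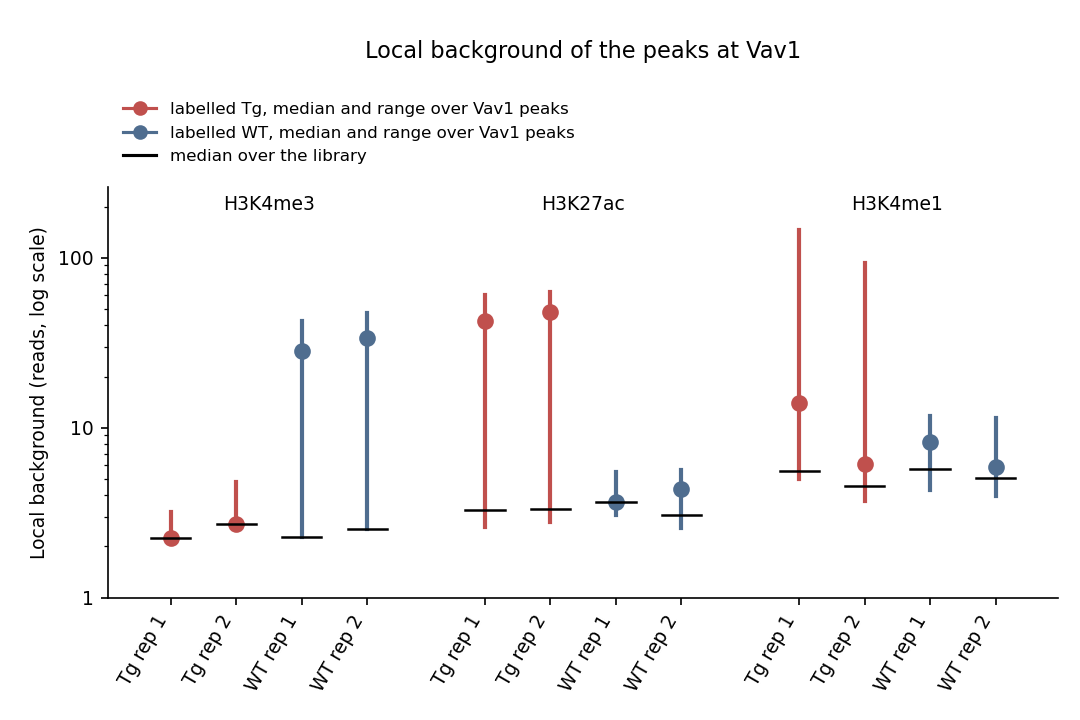
Local background in reads (log scale) of the peaks inside Vav1 or within 10 kb of it, for the 4 libraries of each mark; points are medians, vertical lines the range over the peaks, and black bars the median over all autosomal peaks of the library. The H3K4me3 medians at Vav1 are 2.25 and 2.72 under the Tg label and 28.4 and 33.8 under WT, the opposite of H3K27ac.

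The summits differed between labels at 2 of these 3 regions. At chr17:57289262-57291536, inside the gene, the summit held 23 and 33 reads in the libraries labelled Tg and 215 and 169 in those labelled WT. At chr17:57273918-57277410, upstream of the start, it held 127 and 127 reads against 322 and 306. Fold enrichment over the local background went the other way at both regions. Inside the gene its highest value was 6.56 and 5.89 under Tg against 5.67 and 4.07 under WT. Upstream it was 39.3 and 34.4 under Tg against 8.85 and 7.82 under WT. At the start itself (chr17:57278430-57281697) the summits held 188 and 156 reads under Tg against 220 and 160 under WT, so there the labels overlapped, although the background was 3.19 and 4.09 reads under Tg against 40.0 and 45.8 reads under WT. Summit heights in reads were worked out from the deposited fold enrichment and −log10 p of each peak, and every one of the 144523 came out within 0.05 of a whole number.

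All 4 libraries had the peak distribution of a promoter mark. Peaks numbered 34072 and 35702 in the libraries labelled Tg and 38593 and 36156 in those labelled WT, and both Tg values lay below both WT values (exact permutation test, 2-sided p = 0.333, the smallest that 2 against 2 allow). Mean peak width was 1170 and 1091 bp under Tg and 1100 and 1031 bp under WT (p = 0.667, exact permutation test). The covered autosomal length was 39.9 and 38.9 Mb under Tg against 42.5 and 37.3 Mb under WT (p = 1, exact permutation test). Peaks within 1 kb of a gene start made up 37.4% and 37.8% of the libraries labelled Tg and 35.4% and 38.3% of those labelled WT, and wide peaks of over 4 kb numbered 994 and 884 against 1035 and 728. For these last measures the 2 WT values lay on either side of the Tg values.

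**Figure D2:**
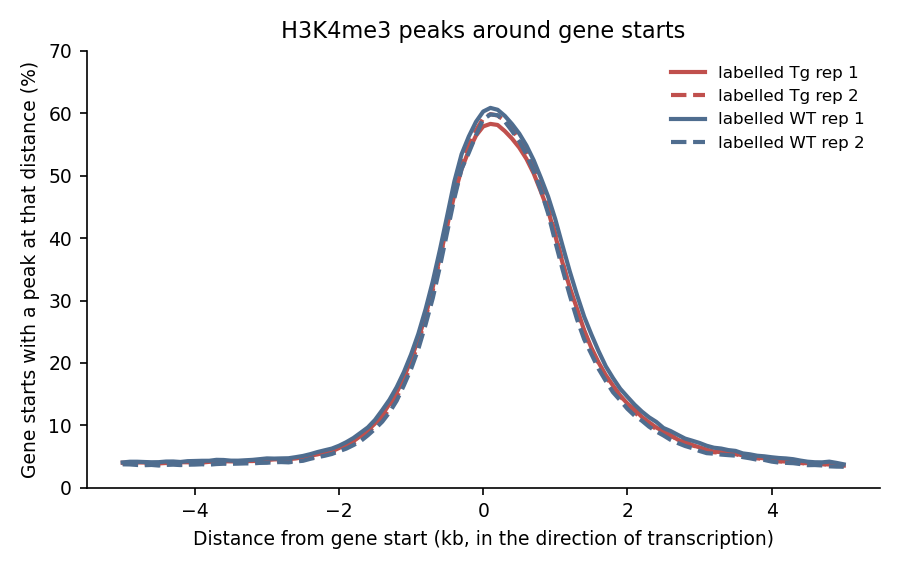
Share of 20063 autosomal gene starts (%, y axis) that a peak covers at each distance from the start (kb, in the direction of transcription), one line per library, red for the Tg label and blue for WT, dashed for replicate 2. All 4 lines peak 100 bp past the start, at 58.3% and 59.8% under Tg and at 60.8% and 59.8% under WT.

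Around gene starts the libraries were close. A peak covered the point 100 bp past the start, the maximum in every library, at 58.3% and 59.8% of gene starts under Tg and at 60.8% and 59.8% under WT. At 2 kb past the start the share was 13.5% and 13.3% under Tg against 14.6% and 12.7% under WT, and at 2 kb before it 6.37% and 6.12% against 6.74% and 5.86%. Overlap between lists, as shared length over combined length, was 0.775 for the pair labelled Tg, 0.767 for the pair labelled WT and 0.741 to 0.793 for the 4 pairs across labels. Pairs within a label were thus no more alike than pairs across labels.

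The progenitor label was checked against markers. Kit, the receptor used for the sort, had 1 peak at its start in each library, of 4498 and 4746 bp under Tg and of 5900 and 4964 bp under WT. A peak lay within 10 kb of the start in all 4 libraries for 24 of 25 stem cell genes and 17 of 17 myeloid progenitor genes. The same held for 17 of 18 mature granulocyte, 18 of 18 autosomal erythroid, 11 of 16 B-lymphoid, 10 of 16 T-lymphoid, 10 of 14 stroma and endothelium, 5 of 12 mast cell and 4 of 10 natural killer cell genes. It also held for 10 of 15 monocyte and macrophage genes, 9 of 15 megakaryocyte genes and 14159 of all 20665 autosomal genes. The B-lymphoid, stroma and monocyte lists were close to the share of all genes, and the granulocyte and erythroid lists were above it. Of the T-lymphoid genes, Cd3e, Cd8a, Cd8b1 and Cd7 had no peak in any library, while Cd3d, Cd3g, Cd4 and Lck had one in all 4. Of the mast cell genes, 6 had no peak in any library, among them Cpa3 and Mcpt8, while Hdc, Il4, Il1rl1, Mitf and Srgn had one in all 4. A peak in a mixed population does not separate a few cells with much of the mark from many cells with little of it.

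Peaks at the Y chromosome genes Ddx3y, Uty, Eif2s3y and Kdm5d and at Xist split the libraries by replicate number, not by label. Tg replicate 1 had 4 peaks at the Y-linked genes and WT replicate 1 had 5, while Tg replicate 2 and WT replicate 2 had none. Xist, the RNA that silences 1 X chromosome in female cells, had 3 peaks in Tg replicate 2 and 6 in WT replicate 2 and none in the others. Sex chromosomes were left out of all comparisons that follow.

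Presence and absence of regions gave few that went with the label. Of the 43826 merged regions, 23935 (54.6%) had a peak in all 4 libraries, with a median width of 1451 bp, and 50.4% of them lay within 1 kb of a gene start. Regions in both libraries labelled Tg and neither labelled WT numbered 645 (1.47%), and those in both labelled WT and neither labelled Tg numbered 984 (2.25%). Regions in 1 library of each label and no other numbered 2981 (6.80%), over the 4 possible pairs. By peak name the 984 are the mutant-only regions and the 645 the wild-type-only ones. Single libraries held more regions alone, 2958 and 1715 under Tg and 4821 and 1715 under WT. With 1 library left out, the count of Tg-only regions was 1179 to 3603 and that of WT-only regions 1702 to 5805, since fewer lists then have to share or lack a region.

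These regions were short and weak. Median width was 371 bp for Tg-only and 345.5 bp for WT-only regions, and the median of the highest summit was 15 reads for both, against 71 reads for regions in all 4 libraries. Regions in 1 library of each label shared these traits, with medians of 364 bp and 15 reads. Only 4.65% of Tg-only regions (30) lay within 1 kb of a gene start, against 14.0% of WT-only regions (138) and 7.72% of regions in 1 library of each label (230). The strength of a region was taken as the smaller percentile of its 2 peaks by −log10 q in their own lists. It reached 46.9 at the strongest Tg-only region and 62.9 at the strongest WT-only region, with medians of 9.42 and 10.6.

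The 8 strongest Tg-only regions near a gene included one 7230 bp from the start of Tomm7, a subunit of the mitochondrial import pore (chr5:23831407-23831714, summits of 23 and 23 reads). Another lay 7495 bp from the start of Sec24b, a coat protein of secretory vesicles (chr3:130068402-130068589, 22 and 19 reads). Neither region overlapped a protein-coding gene. Rhou, Tbc1d2 and Metap2 were also among the 8 strongest within 10 kb of a gene start, with summits of 17 to 24 reads. Among WT-only regions the 8 strongest near a gene included one at the start of Noxa1, an activator of NADPH oxidase (chr2:25094800-25095538, 19 and 19 reads), and one near Mbnl1, a splicing factor (chr3:60468531-60469470, 19 and 19 reads). Efcab13, Capn11, Rprml, Gm40814 and Medag were also among the 8. The strongest WT-only region of all, 12970 bp from the Yap1 start (chr9:8017566-8017858), had summits of 53 and 39 reads. By peak name the first set belongs to wild type and the second to the mutant.

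Promoters marked under the WT label alone were rich in CpG, and so were those marked in 1 of the pairs across labels. Of 20085 autosomal promoters, 11648 overlapped a peak in all 4 libraries and held a median of 22 CpG, and 7490 overlapped none and held a median of 3. The 18 Tg-only promoters held a median of 4 CpG, and 2 of them (11.1%) held 10 or more. The 105 WT-only promoters, of 96 genes, held a median of 17 CpG, and 80 of them (76.2%) held 10 or more, against 57.9% of all promoters. Promoters with a peak in Tg replicate 2 and WT replicate 1 alone numbered 88, with a median of 16 CpG. Tg replicate 2 and WT replicate 2 alone shared 30 (median 10). Tg replicate 1 alone shared 23 with WT replicate 1 (median 5) and 14 with WT replicate 2 (median 3). Beside Rprml, Sox2 and Tlx3, shown above, the WT-only promoters included Foxa2 and Nkx3-2, transcription factors of endoderm and skeleton, Nkx1-1, Fgf5, a growth factor, and Igfbp3, which binds insulin-like growth factors. Beside Pax5, Rag2 and Hbb-bs, the Tg-only ones included Rara, the retinoic acid receptor alpha, and S1pr4, a lymphoid and myeloid sphingosine phosphate receptor. These genes were picked after their values were seen.

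Tg replicate 1 stood apart at CpG-rich promoters. Promoters with a peak in every library but that one numbered 278, with a median of 18 CpG. Those missing from Tg replicate 2 alone numbered 35 (median 8 CpG), from WT replicate 1 alone 25 (median 5) and from WT replicate 2 alone 53 (median 5). Over all merged regions, 1665 were missing from Tg replicate 1 alone, 718 from Tg replicate 2, 534 from WT replicate 1 and 1155 from WT replicate 2. The part of this library in the count of WT-only promoters was not tested.

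No gene passed the test for a difference in peak length. For each autosomal protein-coding gene, the bases covered by peaks within 10 kb of its start were compared between labels with limma on log2(length + 500 bp) after quantile normalization, over 14909 genes with a peak in at least 2 libraries. At an adjusted p of 0.05, 0 genes (0%) were called, and the lowest adjusted p was 0.647. An unadjusted limma p under 0.05 was found at 750 of the 14909 genes (354 higher and 396 lower by label). With no difference at any gene, a share of about 0.05 would fall under that cut, and the same holds for the region counts below. In the deposited lengths, before normalization, both libraries labelled Tg lay above both labelled WT at 1808 genes (12.1%) and below both at 2866 genes (19.2%). Since none passed, the genes named are those with the largest log2 difference among genes whose labels did not overlap. The log2 differences are on the log2(length + 500 bp) scale, and the added 500 bp shrinks those of short peaks. Quantile normalization also moved short lengths. Ms4a1, with 237 and 0 bp under Tg against 263 and 0 bp under WT, came out at 0.24. Cd5, with 0 and 0 bp against 191 and 171 bp, came out at -0.02. For Adgre4 the difference was 1.19, against 0.97 with no normalization. In each of these genes the shift was toward higher values under Tg. Where the strand of a gene was not known, as for Slc4a1, Cd74, Onecut2 and Sfrp1, both annotated ends served as its start.

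**Figure D3:**
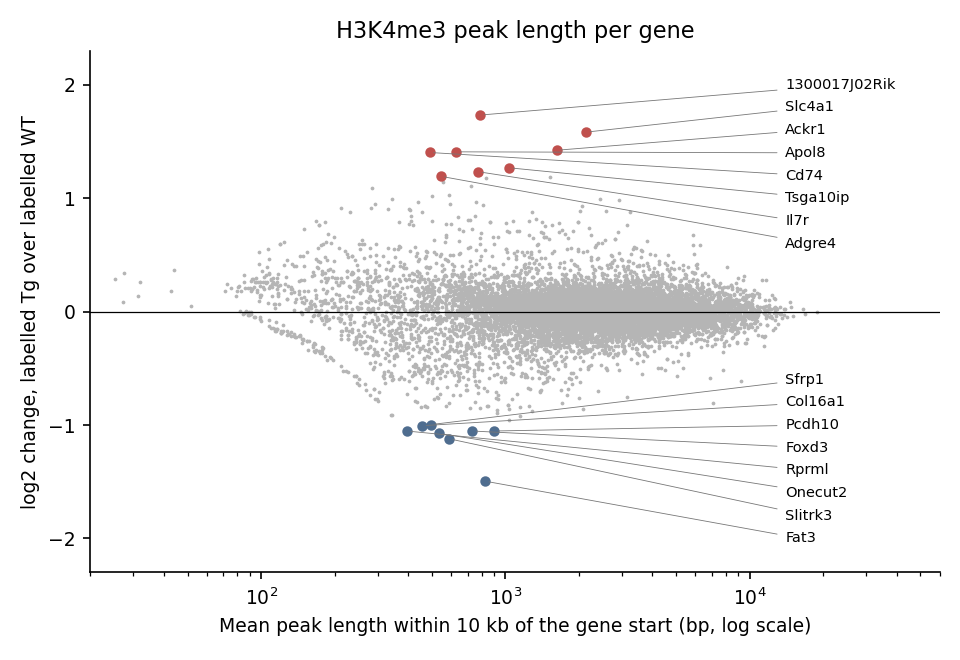
Mean H3K4me3 peak length within 10 kb of the gene start (bp, log scale, x axis) against the log2 change by label, Tg over WT (y axis), for the 14909 genes tested; red and blue points are the 8 named genes higher and the 8 lower under the Tg label. The named genes have mean lengths near or under 2 kb, and long domains lie close to 0.

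Among genes with longer peaks under the Tg label, a pair belongs to the red cell lineage. Slc4a1, the band 3 anion exchanger of the red cell membrane (chr11:102348820-102365281), had 3489 and 3022 bp under Tg against 416 and 1621 bp under WT, a log2 difference of 1.58 (SE 0.55, limma adjusted p = 0.904). Ackr1, the Duffy antigen chemokine receptor (chr1:173331886-173333503), had 3042 and 1900 bp against 318 and 1231 bp (log2 1.42, SE 0.52, limma adjusted p = 0.904). In both genes WT replicate 1 held the shortest length, and without it the log2 difference was 0.79 for Slc4a1 and 0.74 for Ackr1, against 2.42 and 2.15 without WT replicate 2. A further pair belongs to lymphoid or antigen-presenting cells. Cd74, the invariant chain of MHC class II (chr18:60803849-60812652), had 1026 and 770 bp under Tg against 161 and 0 bp under WT (log2 1.40, SE 0.14, limma adjusted p = 0.647). Il7r, the interleukin-7 receptor of lymphoid progenitors (chr15:9506159-9529941), had 1950 and 597 bp against 554 and 0 bp (log2 1.23, SE 0.49, limma adjusted p = 0.904), and Tg replicate 1 stood far above the rest, with a difference of 0.64 without it. Adgre4, a myeloid adhesion receptor (chr17:55749984-55853662), had 807 and 955 bp under Tg against 230 and 179 bp under WT (log2 1.19, SE 0.09, limma adjusted p = 0.647). 1300017J02Rik, Apol8 and Tsga10ip complete the 8, with log2 differences of 1.73, 1.41 and 1.27. By peak name all 8 are longer in wild type.

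Another 8 genes had shorter peaks under the Tg label. Fat3, an atypical cadherin of neurons (chr9:15910189-16502681), had 258 and 0 bp under Tg against 1763 and 1275 bp under WT (log2 -1.49, SE 0.29, limma adjusted p = 0.904). Slitrk3, a neuronal membrane protein (chr3:73047066-73057953), had 0 and 273 bp against 1213 and 862 bp (log2 -1.12, SE 0.11, limma adjusted p = 0.647). Foxd3, a forkhead factor of the neural crest (chr4:99656299-99658671), had 0 and 516 bp against 1340 and 1075 bp (log2 -1.05, SE 0.22, limma adjusted p = 0.904). The labels were apart in all these by the rule that named them. In Slitrk3 and Foxd3 Tg replicate 2 kept a short peak that Tg replicate 1 lacked. Among peaks with a −log10 q of at least 5 the Foxd3 difference was only -0.13, and without Tg replicate 1 it was -0.69. Sfrp1, a secreted Wnt antagonist (chr8:23411383-23449632), had 0 and 222 bp under Tg against 1030 and 730 bp under WT (log2 -0.996, SE 0.09, limma adjusted p = 0.647). Rprml, whose promoter is printed above, had 0 and 0 bp against 794 and 790 bp, so that no fold is given. Pcdh10, a protocadherin whose difference was -1.05 and -0.54 without Tg replicate 1, Col16a1, a collagen chain, and Onecut2, a homeobox factor, complete the 8. Tg replicate 1 was at 0 bp in 7 of these 8 genes and Tg replicate 2 in 2 of them. By peak name all 8 are longer in the mutant.

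Among regions present in all 4 libraries, width gave the same picture. Of 23935 regions, 0 (0%) passed in width (limma, lowest adjusted p = 0.746), with 1258 at an unadjusted p under 0.05, and both libraries labelled Tg lay above both labelled WT at 15.2% and below at 16%. A region at Slc4a1 (chr11:102361513-102363697) was 2063 and 1560 bp wide under Tg against 230 and 655 bp under WT, which is part of the lengths given for this gene. At the Aatk start, a brain-enriched kinase gene (chr11:120045645-120048759), the width was 725 and 459 bp under Tg against 2941 and 2795 bp under WT (log2 -2.31, SE 0.26, limma adjusted p = 0.746). A region 1602 bp from the Gadd45gip1 start (chr8:84837084-84838750) was 1564 and 1614 bp wide under Tg against 238 and 443 bp under WT. One inside Stom, a membrane protein gene of red cells (chr2:35330742-35331775), was 232 and 162 bp wide against 891 and 817 bp. These 4 regions were named from those whose labels did not overlap, so their labels were apart by selection.

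Summit heights, a measure added after the data were seen, gave 0 of 23935 regions (0%) after quantile normalization (limma, lowest adjusted p = 0.884), with 1341 at an unadjusted p under 0.05. Both libraries labelled Tg lay above both labelled WT at 10.4% of regions and below both at 8.33%. The largest difference was the region inside Vav1 given above (log2 -2.81, SE 0.18, limma adjusted p = 0.884). Under WT its local background was also higher and its fold enrichment lower. With heights divided by the median background of each library in place of quantile normalization, that region was the 1 called (log2 -2.84, SE 0.38, limma adjusted p = 1.97e-09). In that fit limma pooled the spread over all regions, so this p does not measure the spread between libraries at this region. A region near Tsga10ip (chr19:5406739-5407857) had summits of 110 and 29 reads under Tg against 23 and 12 reads under WT (log2 1.83, SE 0.74, limma adjusted p = 0.894), and Tg replicate 1 alone held the high value, with a difference of 0.90 without it. A region inside Fgf23, a phosphate-regulating hormone gene (chr6:127079869-127080503), had 10 and 14 reads against 36 and 31 reads.

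The 20 gene lists are described by the sign and median of their log2 differences in peak length, beside a median of 0.00 over the 14909 genes tested. No member of any list passed. Neighbouring members share peaks, so members of a list are not independent. Members named that lie near no region of 1 label alone were chosen after their values were seen. List medians ran from -0.25 to 0.27 by label.

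**Figure D4:**
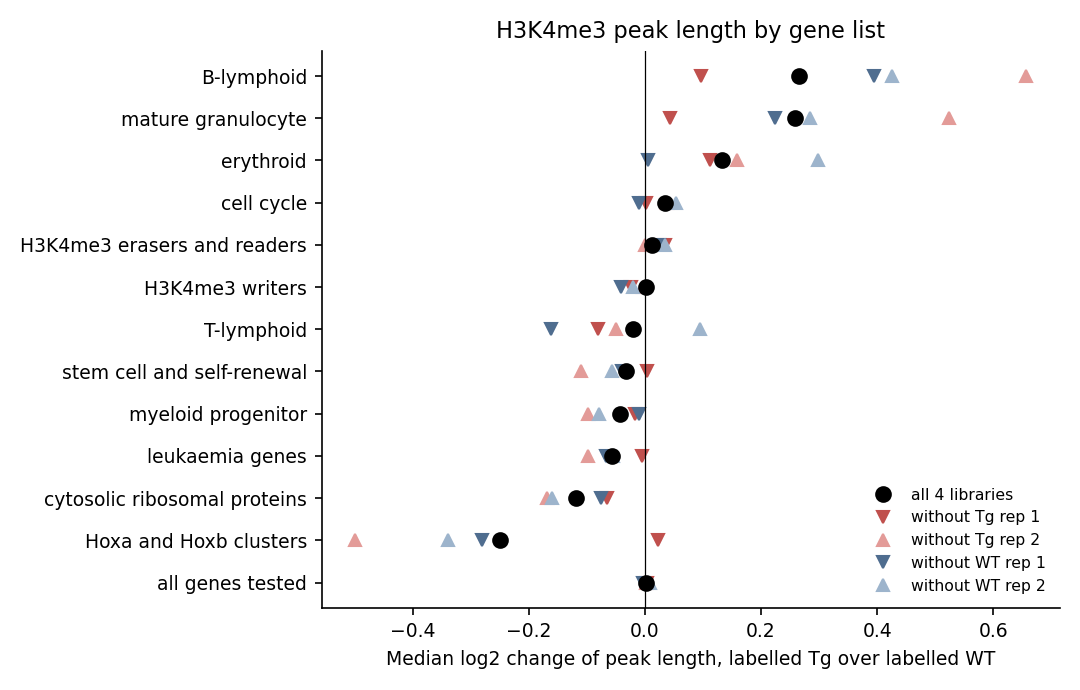
Median log2 change of H3K4me3 peak length by label (Tg over WT, x axis) for 12 gene lists and for all genes tested; black circles use all 4 libraries and triangles leave out 1 library. Without Tg replicate 1 the medians of the Hox, granulocyte and B-lymphoid lists move to 0.02, 0.04 and 0.10.

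B-lymphoid genes had a positive log2 difference by label in 16 of 16 members after quantile normalization, with a median of 0.27. With no normalization, and with scaling to equal covered length, 14 of 16 were positive. Both libraries labelled Tg lay above both labelled WT at 8 of the 16, against 12.1% of all genes tested. A Tg-only region lay within 10 kb of 8 members (all genes: 1.62%) and a WT-only region within 10 kb of 3 (all genes: 2.64%). Vpreb3, a pre-B-cell receptor chaperone, had 5048 and 3058 bp under Tg against 2239 and 1371 bp under WT (log2 0.98, SE 0.27, limma adjusted p = 0.904). Pax5 had 6031 and 2434 bp against 2255 and 1912 bp (log2 0.76, SE 0.39, limma adjusted p = 0.904), and Tg replicate 1 was far above the other 3. Cd79a, a signalling chain of the B-cell receptor, had 7301 and 6120 bp under Tg against 5356 and 6111 bp under WT, where Tg replicate 2 and WT replicate 2 were level. Vpreb1, a surrogate light chain gene, had 3730 and 2429 bp against 3038 and 2078 bp, so the labels overlapped. Without Tg replicate 1, 12 of 16 members were positive and the median was 0.10, and by peak name all these signs turn round.

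Mature granulocyte genes also had a positive difference in 18 of 18 members, with a median of 0.26. Both libraries labelled Tg lay above both labelled WT at 7 of the 18 and below both at 0, against 12.1% and 19.2% of all genes tested. Genes of this list were near no Tg-only or WT-only region. Camp, the cathelicidin of neutrophil granules, had 6149 and 3711 bp under Tg against 3230 and 3264 bp under WT (log2 0.50, SE 0.22, limma adjusted p = 0.904). S100a9, a calcium-binding protein abundant in neutrophils, had 10500 and 5160 bp against 4992 and 4392 bp (log2 0.59, SE 0.31, limma adjusted p = 0.904). Both had their longest peaks in Tg replicate 1. Retnlg, a neutrophil resistin-like gene, had 2818 and 2413 bp under Tg against 1741 and 1626 bp under WT, with both replicates apart (log2 0.53, SE 0.09, limma adjusted p = 0.904). Without Tg replicate 1 the count was 11 of 18 and the median 0.04.

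Erythroid genes had a positive sign in 16 of 18 autosomal members, with a median of 0.13, and both libraries labelled Tg lay above both labelled WT at 7 and below both at 1 (all genes: 12.1% and 19.2%). Hba-a1, an adult alpha-globin gene, had 3491 and 2054 bp under Tg against 1086 and 1468 bp under WT (log2 0.89, SE 0.27, limma adjusted p = 0.904). Hbb-bs had 1807 and 1448 bp against 498 and 1246 bp (log2 0.80, SE 0.39, limma adjusted p = 0.904). The globin genes come in near-identical copies, so reads can be placed on either copy and their lengths are uncertain. Car2, carbonic anhydrase 2, the 1 member near a Tg-only region, had 7006 and 7050 bp under Tg and 6500 and 6524 bp under WT. Ank1, the ankyrin of the red cell skeleton, went the other way, with 1570 and 2876 bp against 2886 and 2996 bp. Without WT replicate 1, which held the shortest globin peaks, 10 of 18 were positive and the median was 0.01.

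Genes of the Hoxa and Hoxb clusters, homeobox factors of stem and progenitor cells, had a negative difference by label in 18 of 21 members, with a median of -0.25. Both libraries labelled Tg lay above both labelled WT at 2 members and below both at 2, shares under those of all genes (12.1% and 19.2%). The 4 neighbours Hoxb3, Hoxb4, Hoxb5 and Hoxb6 were within 10 kb of a WT-only region (all genes: 2.64%). Hoxb6 had 2560 and 8447 bp under Tg against 9823 and 7533 bp under WT (log2 -0.81, SE 0.55, limma adjusted p = 0.904), and Hoxb3 had 4659 and 10504 bp against 11701 and 10052 bp. In both only Tg replicate 1 was short. Hoxb4 had 6375 and 6778 bp under Tg against 7780 and 7273 bp under WT (log2 -0.19, SE 0.08, limma adjusted p = 0.904), with the labels apart. Without Tg replicate 1, 13 of 21 members were positive and the median was 0.02, a turn of sign.

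Cytosolic ribosomal protein genes had a negative difference by label in 25 of 26 members, with a median of -0.12, and 11 lay below both WT values, against 19.2% of all genes. Rps3 had 2707 and 3223 bp under Tg against 4388 and 3715 bp under WT (log2 -0.38, SE 0.11, limma adjusted p = 0.904). Rpl19, near a WT-only region, had 4286 and 3938 bp against 4834 and 4572 bp. In both genes the labels were apart. The median was between -0.07 and -0.17 with each library left out in turn, and it stayed below 0 under each of the 9 other settings of the gene comparison.

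Genes that write and read the mark lay at the median of all genes. The 15 autosomal writers with a value, among them the MLL and SET1 subunits, had a median of 0.00 with 8 positive and 7 negative. Ash2l, a core subunit, had 2750 and 2388 bp under Tg against 3024 and 2764 bp under WT, and Dpy30 had 2252 and 2299 bp against 2799 and 2336 bp. The 17 autosomal erasers and readers had a median of 0.01 with 11 positive. Kdm5a, an H3K4 demethylase and the 1 member near a Tg-only region, had 6098 and 6411 bp under Tg against 6155 and 5604 bp under WT. Chd1, a remodeller that binds H3K4me3, had 3576 and 4340 bp against 5023 and 4693 bp (log2 -0.27, SE 0.11, limma adjusted p = 0.904).

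The remaining lists had medians between -0.22 and 0.13 by label. Leukaemia genes had 6 of 24 positive, with a median of -0.06; Tlx3, near a WT-only region, had 0 and 462 bp under Tg against 907 and 794 bp under WT. Stem cell genes had a median of -0.03 with 9 of 24 positive, and Lmo2, near a WT-only region, had 7471 and 7569 bp against 8890 and 7778 bp. Kit itself, whose window also holds a Tg-only region, had 4670 and 5300 bp under Tg and 6282 and 5427 bp under WT. Myeloid progenitor genes had a median of -0.04, T-lymphoid genes -0.02, megakaryocyte genes -0.06 and monocyte genes 0.13. Cell cycle genes had a median of 0.03, JAK-STAT genes -0.01, interferon response genes -0.00 and NuRD genes, whose complex binds Phf6 in human cells, -0.03. Stroma and endothelium genes had -0.22 over 12 genes, with 8 negative, and 0.07 without Tg replicate 1. For natural killer cell genes it was 0.10 over 5 and for mast cell genes 0.00 over 5. The sign of the median turned round in at least 1 other setting for the writer, monocyte, natural killer cell, mast cell, leukaemia, NuRD, JAK-STAT and interferon lists. With 1 library left out it also turned for the stem cell, megakaryocyte, T-lymphoid, stroma and cell cycle lists.

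The other marks were read at the same places. Tg-only H3K4me3 regions overlapped an H3K27ac peak at 38.8% and 53.3% in the H3K27ac libraries labelled Tg and at 65.6% and 55.7% in those labelled WT. Of these 645 regions, 8 (1.24%) had H3K27ac in both libraries labelled Tg alone and 49 (7.60%) in both labelled WT alone. Regions in all 4 H3K4me3 libraries had 179 (0.748%) and 272 (1.14%) in those classes. WT-only H3K4me3 regions overlapped H3K27ac at 21.1% and 27.8% under Tg and at 27.7% and 21.0% under WT, with 20 (2.03%) and 17 (1.73%) in the classes of 1 label alone. Tg-only H3K4me3 regions therefore had H3K27ac more often in the libraries labelled WT, which by peak name are of the same genotype as those regions, and WT-only regions showed no such lean. These are shares of regions in single libraries, with no test.

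**Figure D5:**
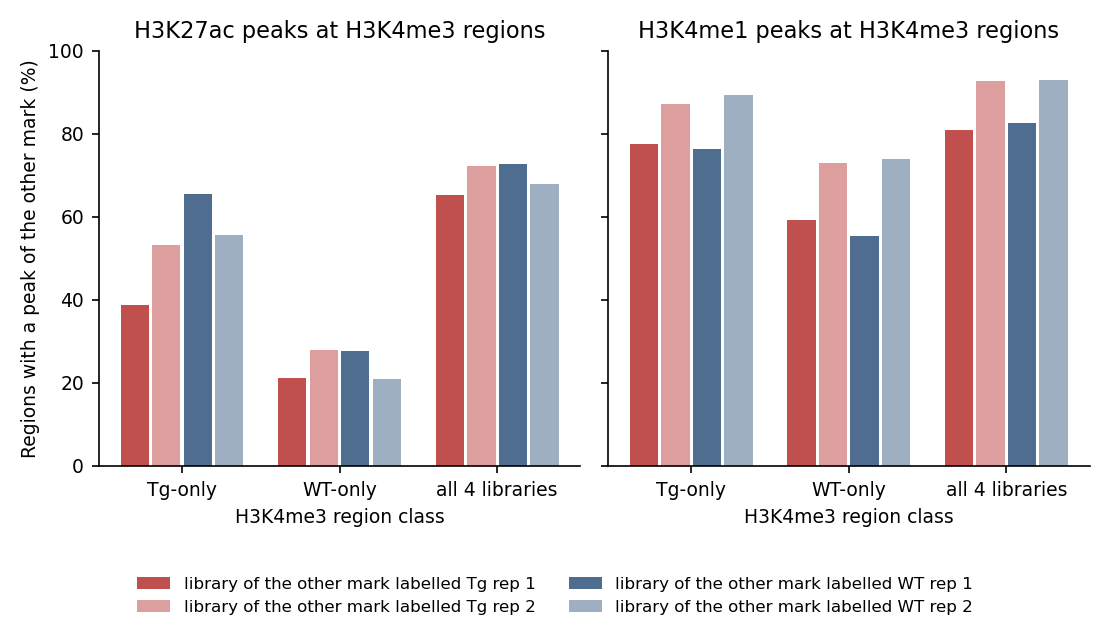
Share of H3K4me3 regions (%, y axis) that overlap a peak of H3K27ac (left) or H3K4me1 (right), for Tg-only, WT-only and common regions, one bar per library of the other mark (red Tg, blue WT, paler for replicate 2). At Tg-only regions H3K27ac is at 38.8% and 53.3% under Tg and 65.6% and 55.7% under WT.

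For H3K4me1 the share went with the replicate number. At Tg-only regions it was 77.5% and 87.1% under Tg and 76.4% and 89.3% under WT, and at WT-only regions 59.2% and 73.0% against 55.4% and 73.9%. The replicate 2 libraries of H3K4me1 were higher under both labels.

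Across 11805 genes with a value in both marks, the log2 differences by label of H3K4me3 and H3K27ac peak length had a Spearman correlation of -0.21, which is 0.21 with the H3K4me3 peak names. With H3K4me1 it was -0.03 over 14143 genes. Genes share peaks and libraries and are not independent, so no p is given. H3K27ac length passed the same limma test at 22 of 12031 genes (0.183%), 14 lower and 8 higher under the Tg label. Of the 14 lower, 10 had an H3K4me3 value, and all 10 had a positive H3K4me3 log2 difference by label, with a median of 0.23. Over all genes tested in H3K4me3, 7614 of 14909 were positive. Both H3K4me3 libraries labelled Tg lay above both labelled WT at 3 of the 10 (all genes: 12.1%). The 10 are not separate loci, since Dnase1l3 and Abhd6 had the same values in both marks. Ear2, an eosinophil ribonuclease gene, fell by 1.77 in H3K27ac (log2, limma adjusted p = 0.0407) and had an H3K4me3 log2 difference of 0.70. Olfm4, a neutrophil granule gene, fell by 2.60 in H3K27ac (limma adjusted p = 0.0338), with 0.67 in H3K4me3, where its labels overlapped. Of the 8 higher, among them Mpo, Elane and Prtn3 of neutrophil progenitors and Meis1 of stem cells, 5 had a negative H3K4me3 difference and 3 a positive one. Meis1 had -0.21 and Mpo -0.04.

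The lists did not all go the same way between marks. The granulocyte list had a median of -0.61 in H3K27ac by label over 18 genes and of 0.21 in H3K4me1 over 18 genes, against 0.26 in H3K4me3. The Hox list had 0.89 in H3K27ac over 15 genes and 0.30 in H3K4me1 over 21 genes, against -0.25 in H3K4me3. The erythroid list had 0.00 in H3K27ac over 9 genes and -0.72 in H3K4me1 over 15 genes, against 0.13 in H3K4me3. The B-lymphoid list had 0.01 in H3K27ac over 8 genes and 0.04 in H3K4me1 over 14 genes, against 0.27. With the H3K4me3 sign by peak name, the granulocyte and Hox lists have the same sign in H3K4me3 and H3K27ac, and the granulocyte list has opposite signs in H3K4me3 and H3K4me1. Without Tg replicate 1 the H3K4me3 median by label was 0.02 for the Hox list, a turn of sign, and 0.04 for the granulocyte list.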

How the data were processed

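H3K4me3 peaks of 4 libraries, 2 per label, were analysed together with those of 8 libraries of H3K27ac and H3K4me1. Chromatin was prepared with a low-input ChIP kit and read single-end over 75 bp, per the labels' protocols. The submitters' processing notes name MACS2 and deepTools, Bowtie2 and SAMtools, FastQC and Trim Galore, and the mm10 build; their versions, the peak calling settings and any control library are not given in the sources used here. The authors deposited 1 peak list per library, not pooled, with a score, a fold enrichment (ratio) at the summit, a −log10 p-value and a −log10 q-value for each peak. Read totals are not in the lists, which leaves the sequencing depth unknown, and no counting interval is given.

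From these, the summit height and the local background of each peak were solved jointly from fold and −log10 p, on the assumption that the fold is height plus 1 over background plus 1 and that p is a Poisson tail. Peaks on the 19 autosomes were merged where they overlapped, and 1 bp of a peak counted as presence. Gene positions and promoters came from RefSeq GRCm38.p6: of 20665 autosomal protein-coding genes, 16457 had a known start and 4208 were read at either end. Peak lengths were compared with limma 3.58.1 (R 4.3.3) with Benjamini-Hochberg adjustment at 0.05, and single library values with exact permutation tests (Python 3.11.15, SciPy 1.17.1). The scripts were tested on simulated data. Genes were named by the largest log2 difference past the threshold, or, since none passed, among genes with labels that did not overlap, 8 per direction (6 for regions). The 8 strongest regions of each label alone near a gene and up to 4 list members near such regions were named as well. Some of the genes that this rule names are not reported here. The members and the 20 gene lists were chosen with earlier results of these data known. Replicate numbers were not taken to pair the libraries. Alternatives were the pseudocount, scaling, filter, window, peak threshold, overlap rule, replicate block and leaving out each library.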

Additional observations from a re-analysis of the deposited data

Results flagged for a closer look

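Peaks on the Y chromosome lay outside all comparisons. At 4 of its genes, Ddx3y, Uty, Eif2s3y and Kdm5d, Tg replicate 1 had 4 peaks and WT replicate 1 had 5, against none in either replicate 2 library, so 1 library of each label carries the signal.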

How the results depend on the processing

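No gene and no region width passed under any alternative run. With the replicate block, 0 genes and 0 regions were called in length, width or height, and crossing the numbers also gave 0 genes. Deviations of same-numbered libraries from their label means had r = -0.12 over genes and -0.06 over regions, so they did not deviate together. Summit height gave 5 regions with no normalization and 1 with division by background. In these 2 fits the spread was pooled over all regions, so a small p does not measure the spread at a single region. This measure and these settings were chosen after seeing the data, and the cause was not tested. Tg-only and WT-only regions numbered 366 and 794 among peaks with a −log10 q of at least 5, 890 and 1152 where a peak had to cover at least 0.5 of the region, and 431 and 784 with peaks within 500 bp merged, against 645 and 984. Tg-only regions ranged from 1179 to 3603 with 1 library left out, and WT-only regions from 1702 to 5805. Within replicate 1 there were 4639 Tg-only and 8657 WT-only regions, and within replicate 2 there were 4702 and 3919. These larger counts follow from comparing fewer libraries. The label with more such regions was WT within replicate 1 and Tg within replicate 2. The difference in covered length, Tg minus WT, was -0.463 Mb and ran from -3.06 to 2.13 Mb with 1 library left out, turning positive without WT replicate 1. The difference in the share of peaks near a start was 0.777 percentage points and ran from -0.715 to 2.27, turning negative without WT replicate 1. The size of a named gene's difference moved with the pseudocount: that of Slc4a1 was 2.22 with 100 bp and 0.87 with 2000 bp. With 1 library left out, the lone library of its label was assumed to vary like the others. Read depth is unknown, and 2 libraries per label limit every test.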
